A study of Mus musculus with 63 samples.

Results

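Double-knockout organoids, which lack both CDK8 and CDK19, were compared with Cdk19-null organoids, which lack CDK19 but keep CDK8. The comparison asks what the removal of CDK8 changes where CDK19 is already absent. It rests on 6 of the 63 samples of the series, 3 for each group, chosen by the genotype and treatment on their labels. The double-knockout organoids (CDK8iIEC-KO/Cdk19-/-) were of genotype VillinCreERT2, Cdk8fl/fl and Cdk19-/-, and the Cdk19-null organoids (Cdk8fl/fl/Cdk19-/-) carried both alleles without the Cre transgene. VillinCreERT2 is a tamoxifen-activated Cre recombinase driven by a promoter of the intestinal epithelium. Both groups were small intestinal organoids on the C57BL/6 strain, received 100 nM 4-hydroxytamoxifen (4-OHT) and were collected on day 7. The animals' ages are not on the labels. The headers give the 3 samples of each group 1 line number, and nothing states that they came from separate animals, so p-values measure the spread between samples of a line, which may be technical. The presence of Cre, the line and the loss of CDK8 therefore change together in this comparison and cannot be told apart by it.

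CDK8 and CDK19 are closely related kinases. Either one joins cyclin C, MED12 and MED13 in the kinase module of Mediator, the complex that links transcription factors at enhancers to RNA polymerase II. In the small intestine, stem cells at the crypt base feed an absorptive lineage of enterocytes and a secretory lineage. The secretory lineage holds Paneth cells, which release antimicrobial peptides and Wnt3, mucus-making goblet cells, hormone-making enteroendocrine cells and chemosensory tuft cells. ATOH1 is the transcription factor that opens the secretory path, and Notch signalling acts against it through HES1.

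Values are raw read counts per gene as deposited, given here as CPM, which are counts relative to library size after TMM scaling, with the SD over 3 samples. Total counts ran from 17833336 to 18440256 in double-knockout and from 17375313 to 17718126 in Cdk19-null organoids. All 15 organoid samples of the table entered 1 edgeR quasi-likelihood fit over 15125 genes, with the VillinCreERT2, C57BL/6 and CDK8iIEC-KO (VillinCreERT2 with Cdk8fl/fl and intact Cdk19) groups, all given 4-OHT and collected on day 7. A gene was called where its Benjamini-Hochberg adjusted p was under 0.05 and its fold change over 1.5, the cutoffs of the study. Of the 15125 genes, 957 were called higher (6.33%) and 645 lower (4.26%) in the double knockout. The samples of the groups did not overlap for 48.0% of all genes tested, so a lack of overlap alone says little here. The epithelial list was measured in full, with 0 of 11 genes called. Of 15 immune genes 3 had enough counts to be tested, 0 were called and 6 were at 0 in both groups, with a summed level of 5.46 to 7.31 CPM in double-knockout and 6.23 to 7.77 CPM in Cdk19-null samples. Of 14 mesenchymal genes 3 were tested, Vim and Pdgfrb were called lower and 6 were at 0, with a summed level of 5.15 to 5.96 CPM against 10.9 to 12.5 CPM. Of 10 pancreatic acinar genes 3 were tested, Ctrb1 was called higher and 7 were at 0, with a summed level of 40.5 to 49.4 CPM against 21 to 23.6 CPM. Of 11 stomach genes 2 were tested and Gkn3 was called higher, with a summed level of 10.5 to 13.1 CPM against 5.10 to 5.81 CPM. Of 8 genes of neurons and glia 4 were tested, and S100b and Ret were called higher, with a summed level of 6.37 to 8.52 CPM against 4.87 to 6.54 CPM. Ret was not called without double-knockout replicate 1 (log2 fold change 0.56) or 2 (0.54) or without Cdk19-null replicate 1 (0.49). Of 8 endothelial genes 3 were tested and 0 called. The part of these cells in the results was not tested.

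**Figure D1:**
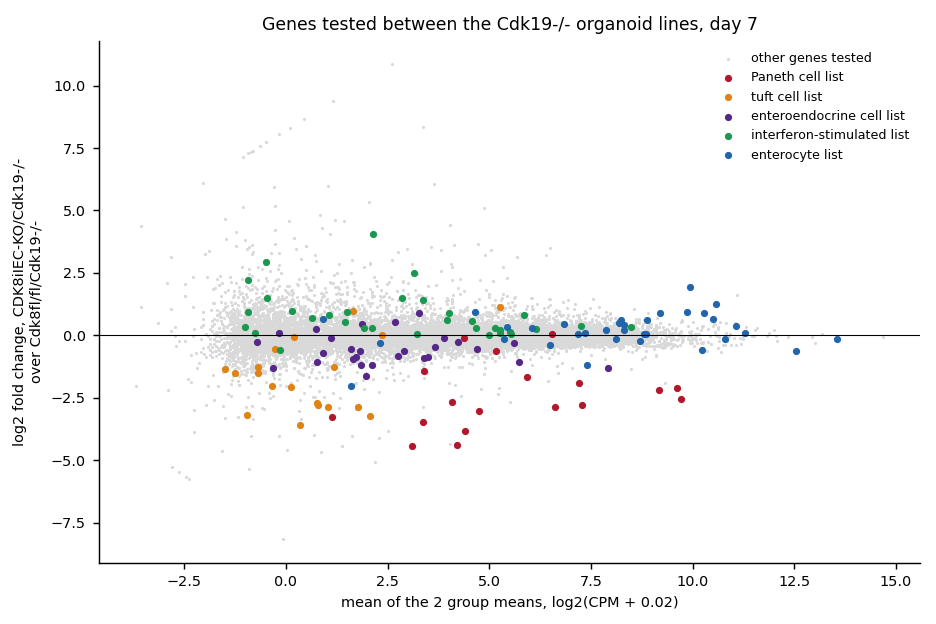
Each point is 1 of the 15125 genes tested, with its log2 fold change (double knockout over Cdk19-null) against its mean level, log2(CPM + 0.02). The Paneth and tuft cell lists (red and orange) lie mostly below 0, and 13 of the 33 tested interferon-stimulated genes (green) were called higher.

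Whole-gene counts of Cdk8 were not lower in the organoids labelled as lacking CDK8. Cdk8 was at 66.6, 65.1 and 67.2 CPM in double-knockout and 68.8, 62.3 and 63.4 CPM in Cdk19-null samples (log2 fold change 0.03 ± 0.064 SE, adjusted p = 0.735 by edgeR). The samples of the groups overlapped. Cdk19 read 27.7 ± 0.101 CPM against 25.6 ± 0.768, although both groups are labelled as lacking it. In the C57BL/6 organoids, which carry intact Cdk19, it read 31.0 CPM. Counts summed over a whole gene do not resolve a deleted exon, so these values check neither genotype.

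The other subunits of the kinase module were not called. Ccnc, which encodes cyclin C, stood at 27.5 ± 2.13 CPM in the double knockout and 28.4 ± 2.07 in Cdk19-null organoids (log2 fold change -0.04, adjusted p = 0.704 by edgeR). Med12 differed by -0.01 on the log2 scale (adjusted p = 0.977 by edgeR). Med13 was at 118 ± 4.07 against 97.4 ± 0.626 CPM, a log2 difference of 0.28 that passed the p threshold (adjusted p = 0.00327 by edgeR) but not the fold cutoff. Of 6 tested genes of the kinase module and 25 of core Mediator, 0 were called.

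Most Paneth cell genes were lower in the double knockout. Of 18 listed genes, 18 were tested and 16 were called lower, 0 higher, and the median log2 fold change was -2.60, against -0.01 over all genes. Lyz1, which encodes the lysozyme of Paneth granules (GRCm38 chr10:117287797-117292868), was at 249, 235 and 256 CPM in double-knockout samples and at 1407, 1471 and 1440.3 CPM in Cdk19-null samples. Every double-knockout sample lay far below every Cdk19-null sample. The log2 fold change of Lyz1 was -2.54 ± 0.062 (SE; adjusted p = 4.73e-21 by edgeR), a 5.83-fold difference.

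Ang4, an angiogenin with antimicrobial activity, read 26.5, 21.3 and 23.1 CPM against 160.3, 181 and 172 CPM. Mmp7, the protease that activates the defensins, read 31.5, 30.2 and 25.7 CPM against 87.2, 99.5 and 93.7 CPM. The groups were clearly apart for both genes, by 7.23-fold for Ang4 (adjusted p = 6.13e-18 by edgeR) and 3.21-fold for Mmp7 (adjusted p = 4.19e-14 by edgeR). Itln1, an intelectin that binds microbial sugars, was at 297 ± 2.10 against 1272 ± 69.8 CPM. Mptx2, a pentraxin, was at 1.67 ± 0.642 against 35.1 ± 0.710 CPM, a 21-fold difference. The uncalled members were Pnliprp2 (log2 fold change 0.04) and Nupr1 (-0.09).

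Defensins made up much of the list. All 8 defensin genes listed were called lower, from Defa17 (log2 fold change -1.92) to Defa21 (-3.84). Defa24 stood at 216, 204 and 207 CPM in the double knockout and at 896, 979 and 979.6 CPM in Cdk19-null organoids. Defa21 stood at 2.92, 2.65 and 2.66 against 33, 44.6 and 40.9 CPM. The defensin genes are near-identical copies, so how reads were divided among members is uncertain. The 12 largest falls were led by Pla2g2a, a secreted antimicrobial phospholipase of Paneth cells, at 0.276, 0.395 and 0.111 CPM against 7.99, 9.37 and 9.06 CPM (log2 fold change -5.05 ± 0.26, adjusted p = 2.62e-14 by edgeR).

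In these bulk samples, fewer cells of a type and less RNA per cell cannot be told apart. Paneth genes also differed between control lines with intact Cdk8 and Cdk19. In VillinCreERT2 against C57BL/6 organoids, where 26.4% of all genes were called, 15 of 18 Paneth genes were called lower, and the median log2 fold change was -1.37. Lyz1 was at 608 CPM in VillinCreERT2 and 2429 CPM in C57BL/6 organoids. The list thus differs between lines with intact kinases, and the double knockout at 247 ± 11.2 CPM lay below every other organoid group for Lyz1. A comparison inside 1 line, given further on, holds the line constant.

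**Figure D2:**
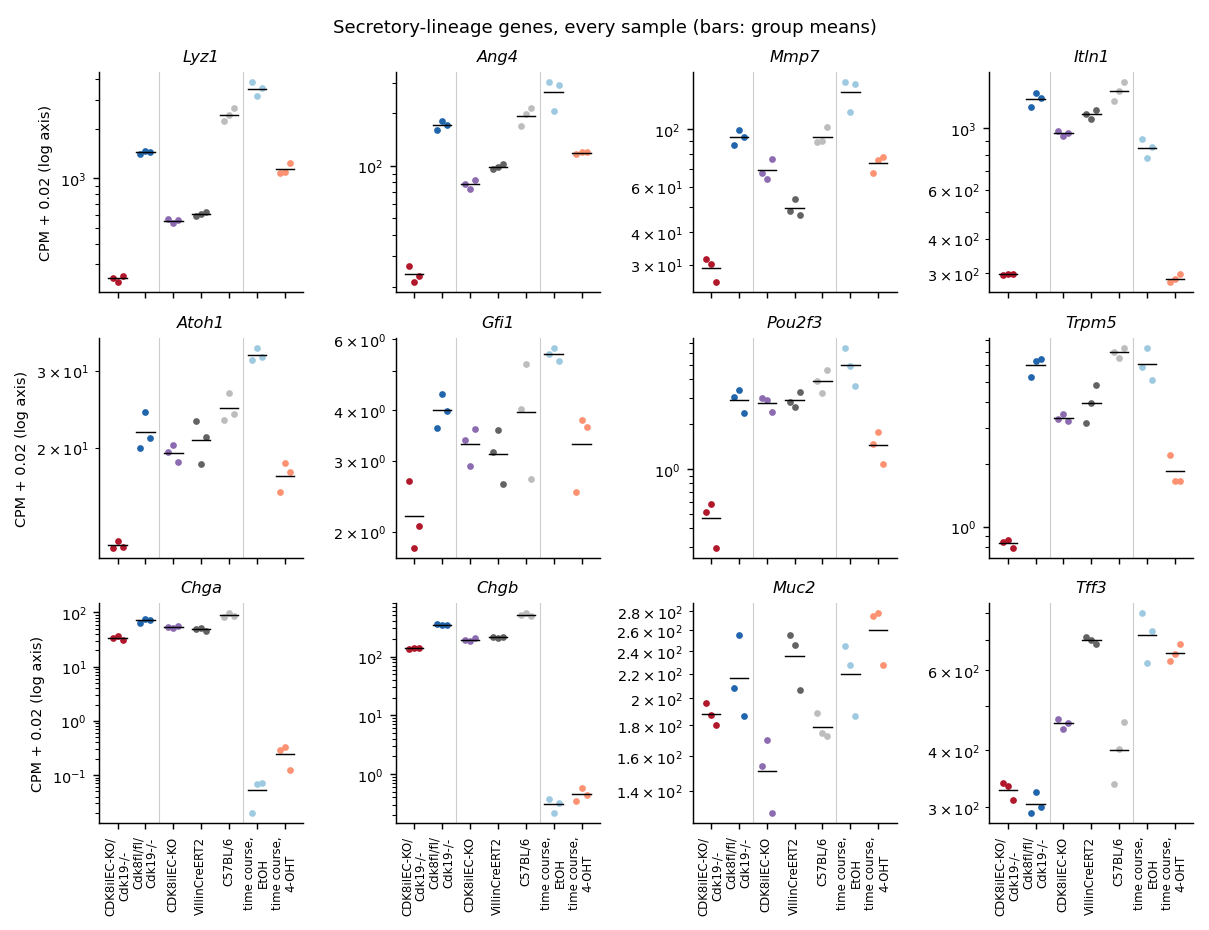
CPM + 0.02 on log axes for 12 secretory-lineage genes, with 3 points per group and a bar at the group mean, for the 5 organoid groups of the table and, at the right, the separate time course line on day 7. Double-knockout samples (dark red) lie lowest among the 5 groups for Lyz1, Ang4, Mmp7, Itln1, Atoh1, Pou2f3, Trpm5, Chga and Chgb, while Muc2 and Tff3 overlap with Cdk19-null samples (blue).

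Most tuft cell genes were lower as well. Of 19 tested, 14 were called lower and 2 higher, and the median log2 fold change was -1.51. Pou2f3, the transcription factor that tuft cells require, was at 0.497, 0.564 and 0.277 CPM against 3.01, 3.38 and 2.35 CPM. Trpm5, the cation channel of their taste signalling, was at 0.828, 0.847 and 0.775 against 5.27, 6.29 and 6.43 CPM. No sample of either group reached the other for these genes, with log2 fold changes of -2.69 ± 0.28 for Pou2f3 and -2.87 ± 0.20 for Trpm5. Dclk1, the kinase used to mark tuft cells, was at 0.80 ± 0.286 against 7.60 ± 0.0973 CPM (adjusted p = 2.04e-12 by edgeR). These genes are expressed at few counts, and 3 were called lower when 10 counts were asked of every sample, which leaves fewer genes tested. The summed level of the list was 67.4 to 72.6 CPM in double-knockout and 66.0 to 74.0 CPM in Cdk19-null samples, so it overlapped.

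Both tuft list members that rose also have roles outside tuft cells. Plcg2, a phospholipase of receptor signalling, was at 50.8, 53.4 and 54.8 CPM in the double knockout against 22.4, 25.3 and 25.4 CPM (log2 fold change 1.12 ± 0.071). Hpgds, a prostaglandin D synthase, was at 4.14 ± 0.325 against 2.10 ± 0.243 CPM (log2 fold change 0.98 ± 0.22).

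Some enteroendocrine genes were lower. Of 28 tested, 13 were called lower and 1 higher, and the median log2 fold change was -0.61. Chga, which encodes chromogranin A of hormone granules, stood at 34.5, 37.4 and 31.3 CPM against 63.6, 76.0 and 74.1 CPM. Chgb, its relative, stood at 139 ± 2.28 against 347 ± 5.91 CPM, a 2.49-fold difference (adjusted p = 1.19e-16 by edgeR). Neurog3, the transcription factor that starts the enteroendocrine programme, was at 2.37, 2.20 and 1.99 CPM against 4.52, 5.12 and 5.14 CPM (log2 fold change -1.17 ± 0.16). The exception was the hormone gene Sst, somatostatin, at 12.6 ± 1.25 CPM in the double knockout and 6.68 ± 1.08 CPM in Cdk19-null organoids. Sst also varied between control lines, at 17.1 CPM in VillinCreERT2 and 0.975 CPM in C57BL/6 organoids. The genes that fell varied between these controls too. Chgb was at 211 CPM in VillinCreERT2 and 516 CPM in C57BL/6 organoids (log2 fold change -1.29), and Chga at 48.7 and 88.9 CPM (-0.87). Of the 28 genes, 11 were called lower and 9 higher between the controls, where 26.4% of all genes were called.

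Goblet cell genes were mostly not called. Of 20 tested, 4 were lower, 0 higher, and the median was -0.40. Muc2, the main secreted mucin, was at 196, 187 and 180.5 CPM against 208, 255 and 186 CPM (log2 fold change -0.20 ± 0.12, adjusted p = 0.208 by edgeR). Tff3, a trefoil peptide, was at 339, 333 and 311 against 291, 323 and 299 CPM (0.11 ± 0.075, adjusted p = 0.299 by edgeR). The samples of the groups overlapped for both. The called genes were Ccl6 (log2 fold change -2.14), Creb3l1 (-0.85), Ccl9 (-0.67) and Foxa3 (-0.59). Foxa3 lay at the fold cutoff and lost its call under 6 of 13 alternatives, among them without double-knockout replicate 3 (-0.47) and without Cdk19-null replicate 1 (-0.50) or 3 (-0.54). Ccl6 and Ccl9 encode chemokines, and Creb3l1 and Foxa3 encode transcription factors.

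Of 18 regulators of secretory fate, 12 were called lower and 0 higher, and the median log2 fold change was -0.79. Atoh1 (GRCm38 chr6:64729125-64731245) was at 11.8, 12.2 and 11.8 CPM in the double knockout and at 19.9, 24.1 and 21.1 CPM in Cdk19-null organoids. The double-knockout samples were tightly grouped and all lower (log2 fold change -0.86 ± 0.096, adjusted p = 8.57e-08 by edgeR). Gfi1, a repressor that acts downstream of ATOH1, was at 2.65, 1.81 and 2.05 against 3.59, 4.37 and 3.97 CPM (log2 fold change -0.87 ± 0.21). Bhlha15, or Mist1, a factor of mature secretory cells, was at 4.94 ± 0.161 against 16 ± 0.647 CPM, a 3.23-fold difference. Spdef, a factor of goblet and Paneth maturation, differed by -0.48 ± 0.10, below the fold cutoff.

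Of 21 tested Notch pathway genes, 2 were called lower, 0 higher, and the median was -0.03. Dll4, a Notch ligand carried by secretory progenitors, was at 3.49 ± 0.0861 against 7.32 ± 0.314 CPM. Lfng, which modifies Notch receptors, was at 3.19 ± 0.493 against 9.27 ± 0.985 CPM. Hes1 was at 115, 112 and 109 CPM against 82.8, 88.9 and 83.7 CPM, a log2 difference of 0.39 ± 0.064 (adjusted p = 2.5e-05 by edgeR) that did not reach the fold cutoff.

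Wnt ligands, receptors and feedback targets split, with 8 of 30 lower and 5 higher. Wnt3, the ligand made by Paneth cells, was at 1.71, 2.20 and 2.16 CPM in the double knockout and 5.73, 6.40 and 5.03 CPM in Cdk19-null organoids (log2 fold change -1.50 ± 0.17). Axin2, a feedback target of Wnt signalling, was at 36.0 ± 0.180 against 71.2 ± 6.37 CPM (log2 fold change -0.99 ± 0.084). Myc, another target, was at 61.1 ± 3.75 against 116 ± 3.83 CPM (-0.92 ± 0.059). The higher genes were Fzd4 (log2 fold change 1.08), Fzd8 (1.57), Sp5 (0.68), Tcf7l1 (1.04) and Sfrp5 (1.98). They encode receptors, transcription factors and a secreted antagonist.

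Among 21 tested stem cell genes, 6 were called lower and 1 higher. Ascl2, a Wnt-driven stem cell factor, was at 1.77, 1.69 and 2.55 CPM against 6.95, 6.52 and 6.93 CPM (log2 fold change -1.76 ± 0.18). Olfm4, a secreted stem cell marker, was at 284, 237 and 365 against 589.6, 509 and 622 CPM (-0.96 ± 0.16). For both genes all double-knockout samples were the lower ones. Lgr5, the R-spondin receptor of stem cells, was at 23.5, 22 and 26.3 against 26.9, 28.5 and 33.2 CPM, a log2 difference of -0.30 ± 0.099 (adjusted p = 0.019 by edgeR) that was not called. Hopx (-0.71), Msi1 (-0.91), Axin2 and Sox9 (-0.75) completed the lower members, and Igfbp4 (0.66) was the higher one.

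Most cell cycle genes had lower values in the double knockout, by less than the fold cutoff. For DNA replication and G1/S, 32 of 33 log2 fold changes were below 0, with a median of -0.35. The gene called was Cdc6, which loads the replicative helicase, at -0.65, and it was not called without double-knockout replicate 1, at -0.56. For mitosis and G2/M, 30 of 30 log2 fold changes were below 0, with a median of -0.25, and 0 were called. VillinCreERT2 over C57BL/6 organoids, with intact kinases, gave medians of -0.22 for DNA replication and -0.23 for mitosis. There, 26 of 33 and 29 of 30 values were below 0. Mki67, the Ki-67 antigen, was at 233, 223 and 271 CPM against 362, 349 and 341 CPM, a log2 difference of -0.53 ± 0.097 (adjusted p = 0.000363 by edgeR) just short of the fold cutoff. Without double-knockout replicate 3, Mki67 passed it, at -0.62.

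Egr1, an immediate-early transcription factor, was among the larger single-gene falls outside the lineages. It was at 6.01, 7.11 and 5.70 CPM in the double knockout and 28.6, 37.7 and 33.5 CPM in Cdk19-null organoids (log2 fold change -2.41 ± 0.12, adjusted p = 2.99e-13 by edgeR). Its list was mixed, with 2 of 20 genes lower and 2 higher.

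Some interferon-stimulated genes were higher in the double knockout. Of 33 tested, 13 were called higher and 0 lower, and the median log2 fold change was 0.55. With 10 counts asked of every sample, which leaves fewer genes tested, 7 were called higher. Type I and III interferons act through transcription factors that bind a promoter element named ISRE and switch on antiviral genes. Promoter stretches of called genes that hold an element of this type are shown for all 8 called genes in which it was found, from the largest difference to the smallest, because they display the sequence the list is known for. They come from RefSeq on GRCm38.p6, read 5′ to 3′ on the gene's strand, are 60 bases long and end at or before the transcription start. Capitals mark matches to GAAANNGAAA or its reverse complement TTTCNNTTTC, overlapping matches included.
Oas1g, chr5:120887614-120887673, minus strand: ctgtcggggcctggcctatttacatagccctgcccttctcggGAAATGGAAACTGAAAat
Rsad2, chr12:26456538-26456597, minus strand: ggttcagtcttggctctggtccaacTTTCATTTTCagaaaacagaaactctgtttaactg
Oas3, chr5:120777700-120777759, minus strand: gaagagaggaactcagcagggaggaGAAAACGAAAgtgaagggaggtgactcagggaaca
Ifit1bl1, chr19:34602038-34602097, minus strand: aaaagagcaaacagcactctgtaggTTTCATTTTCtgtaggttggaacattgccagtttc
Isg15, chr4:156200850-156200909, minus strand: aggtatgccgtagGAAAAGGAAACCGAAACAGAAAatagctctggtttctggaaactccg
Oas1a, chr5:120907526-120907585, minus strand: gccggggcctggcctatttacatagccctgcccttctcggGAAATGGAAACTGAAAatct
Igtp, chr11:58199496-58199555, plus strand: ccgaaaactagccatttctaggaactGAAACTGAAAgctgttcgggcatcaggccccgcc
Ifit1, chr19:34640779-34640838, plus strand: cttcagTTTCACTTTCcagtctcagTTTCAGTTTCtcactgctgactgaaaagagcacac

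Igtp was not called by DESeq2 (log2 fold change 1.00) or without double-knockout replicate 2 (0.77). Of the 13 called genes, 12 matched a RefSeq promoter of 250 bases before to 50 after the start, and 8 of those held the motif. Of the 20 tested and uncalled genes of the list, 15 matched and 8 held it. Over all 32851 promoters the share was 3.44%. The motif is thus frequent in the list whether or not a gene was called, and a match is a description of the letters only. The stretches of Oas1g and Oas1a are nearly the same, as are the genes, so reads may be divided between them in an uncertain way.

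Oasl2, an antiviral protein of the oligoadenylate synthetase family, was at 10.9, 19.9 and 14.3 CPM in the double knockout and 2.95, 2.21 and 2.79 CPM in Cdk19-null organoids. Every double-knockout sample was above every Cdk19-null sample (log2 fold change 2.5 ± 0.21, adjusted p = 1.13e-08 by edgeR). Oas1g, of the same family, was at 9.05, 6.60 and 9.13 against 0.348, 0.524 and 0.615 CPM (4.04 ± 0.24). Oas1g was also at 3.39 CPM in VillinCreERT2 organoids and at 0 in C57BL/6 organoids, so its level differs between control lines too.

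Rsad2, or viperin, was at 0.607, 1.69 and 1.38 CPM against 0.116, 0.116 and 0.224 CPM. Irf7, a transcription factor that amplifies interferon output, was at 21.1, 20.7 and 21.1 against 13.0, 11.5 and 9.78 CPM (log2 fold change 0.88 ± 0.11). Irf9, a DNA-binding factor of the interferon response, was at 18.9 ± 2.63 against 12.4 ± 0.352 CPM (0.61 ± 0.11). The samples did not overlap for any of these.

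Antigen presentation by MHC class I, a known interferon response, had 6 of 21 genes higher and 0 lower. H2-Q1, a non-classical class I gene, was at 72.7, 94.1 and 85.3 CPM against 39.2, 37.3 and 36.0 CPM (log2 fold change 1.16 ± 0.094). Psmb8, a subunit of the immunoproteasome, was at 5.71 ± 0.598 against 1.73 ± 0.749 CPM. Tap2, Psmb9, H2-T3 and H2-Q4 were the others, at log2 fold changes from 0.66 (H2-T3) to 0.87 (Tap2). Psmb9 was not called without Cdk19-null replicate 1, at 0.58. MHC class I genes share sequence, so their counts carry the same uncertainty as the defensins.

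Enterocyte genes moved in both directions. Of 34 tested, 9 were called higher and 3 lower, with a median of 0.23. Alpi, the intestinal alkaline phosphatase of the brush border, was at 1656, 1362 and 1649 CPM in the double knockout and 442, 395 and 384 CPM in Cdk19-null organoids (log2 fold change 1.93 ± 0.083). Apoa4, an apolipoprotein of chylomicrons, was at 2145 ± 96.8 against 889.8 ± 89.3 CPM. In contrast Sis, sucrase-isomaltase, was at 4664 ± 219 against 7201 ± 714 CPM (-0.63 ± 0.09), and Slc2a2, the basolateral glucose transporter, at 94.0, 106 and 108 against 242, 243 and 215 CPM (-1.18 ± 0.077). Without Cdk19-null replicate 1 Sis was not called, at -0.56. The remaining lower member was the vitamin B12 receptor gene Cubn (-2.04), and the sugar digestion list had 3 of 17 lower and 0 higher. Cubn also differed between control lines, at 24.3 CPM in VillinCreERT2 and 1.18 CPM in C57BL/6 organoids.

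Genes of fatty acid use and uptake that were called were higher. In the fatty acid oxidation and ketogenesis list 8 of 27 were higher and 0 lower, in fatty acid synthesis 4 of 14 higher and 0 lower, and in lipid uptake 6 of 23 higher and 0 lower. Scd1, which desaturates fatty acids, was at 3111, 3616 and 3194 CPM against 1118, 1004 and 1078 CPM, a 3.10-fold difference. Acacb, the mitochondrial acetyl-CoA carboxylase, was at 11.0, 18.2 and 13.7 against 1.51, 1.34 and 1.06 CPM (log2 fold change 3.45 ± 0.27). Cd36, a fatty acid receptor, was at 64.9 ± 7.10 against 21.5 ± 3.06 CPM. Sterol synthesis genes went both ways, with 4 of 25 higher and 1 lower. Tm7sf2, a sterol reductase, was at 137 against 72.8 CPM on average, and Lss, lanosterol synthase, was at 262, 282 and 263 against 414, 424 and 404 CPM (log2 fold change -0.62 ± 0.051).

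Among genes of drug and retinoid metabolism, 9 of 25 cytochrome P450 genes were higher and 2 lower, and 7 of 17 retinoid and alcohol dehydrogenase genes were higher and 1 lower. Cyp2d34 was at 34.2, 22.2 and 20.7 CPM against 2.09, 2.44 and 2.74 CPM (log2 fold change 3.40 ± 0.19). Fmo1, a flavin monooxygenase, was at 60.5 ± 6.08 against 5.63 ± 0.216 CPM (3.42 ± 0.11). The lower members were Cyp2c29 (-0.79), Cyp4f40 (-0.62) and the retinoic acid hydroxylase Cyp26b1 (-1.88). The P450 families also hold close copies.

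**Figure D3:**
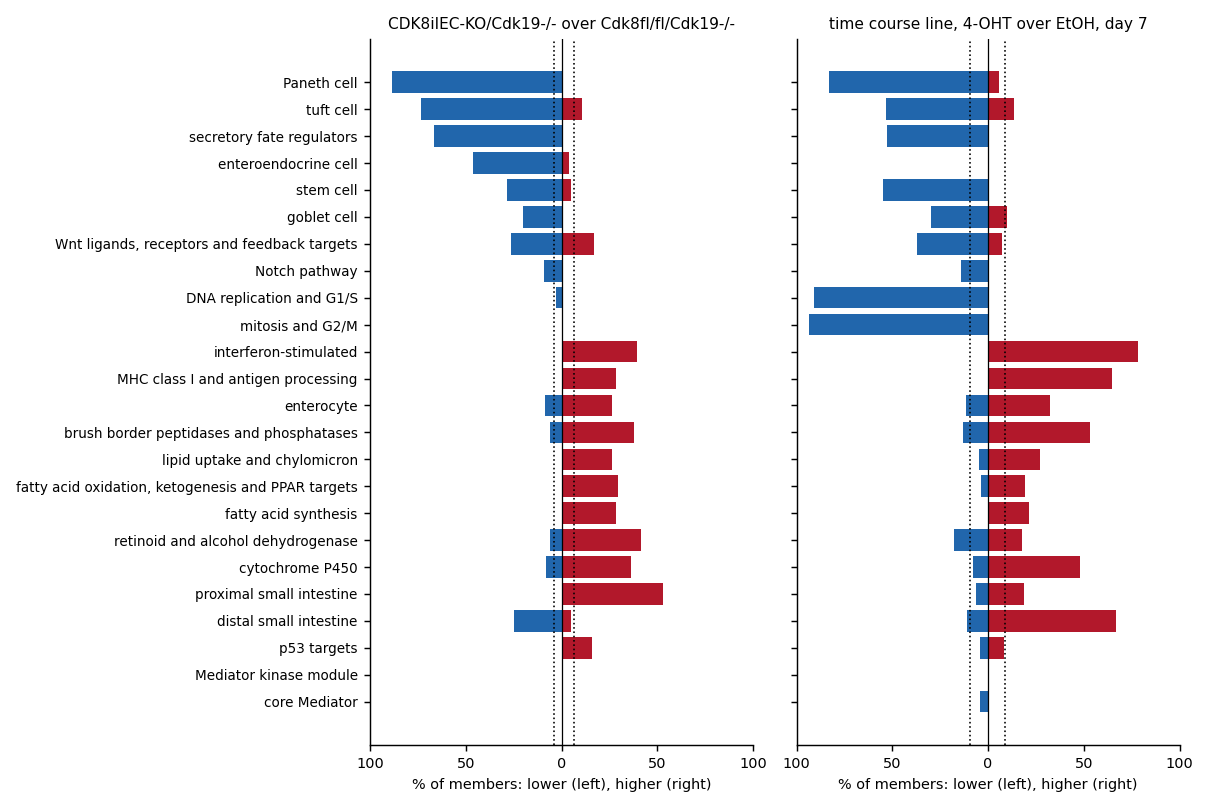
Percent of the tested members of 24 gene lists called lower (blue, left) or higher (red, right), in the double knockout against Cdk19-null organoids (left panel) and in the time course line, 4-OHT against EtOH on day 7 (right panel); dotted lines mark the shares over all genes tested. Paneth, tuft and secretory regulator lists reach far left and interferon genes far right in both panels, while cell cycle lists reach far left and distal genes far right only in the right panel, a difference that was not tested.

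Some of the largest differences were also seen between other lines or followed the transgene. Esr1 was at 12.4, 12.4 and 11.6 CPM in double-knockout samples and at 0 in all Cdk19-null samples, at least 69.4-fold higher against a floor of 3 counts per library. The CreERT2 fusion carries a part of the human oestrogen receptor as background. Esr1 was likewise at 8.07 CPM in CDK8iIEC-KO, 9.10 CPM in VillinCreERT2 and 0 in C57BL/6 organoids, so it was detected in every group with the transgene and in none without it. Whether its reads come from the transgene was not tested. Slc15a2, a peptide transporter, was at 0 in every double-knockout sample and at 1.85, 1.57 and 2.12 CPM in Cdk19-null samples, at least 10.9-fold lower. It stood at 4.87 CPM or more in the other 3 organoid groups.

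Regional genes of the small intestine also differed. Of 17 tested genes of the proximal small intestine, 9 were higher and 0 lower (median log2 fold change 0.62), and of 20 distal genes 1 was higher and 5 lower (median -0.29). Pdx1, a transcription factor of duodenum and pancreas, was at 6.62, 4.8 and 10.6 CPM in the double knockout against 1.1, 0.582 and 1.23 CPM (log2 fold change 2.91 ± 0.34). Slc40a1, the iron exporter of duodenal enterocytes, was at 68.1 ± 11.6 against 29.7 ± 2.36 CPM. Fgf15, the bile acid-driven hormone of the ileum, was at 0.223 ± 0.0581 against 1.28 ± 0.305 CPM.

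The control lines set the scale for these genes. Pdx1 stood at 9.24 CPM in VillinCreERT2 and 0.395 CPM in C57BL/6 organoids, so the lines with intact Cdk8 and Cdk19 spanned the same range. Alpi was at 1327 and 374 CPM in these 2 controls, and the related phosphatase Akp3 at 224 and 12.6 CPM. Akp3 was at 131, 85.8 and 239 CPM in the double knockout and 21, 12.8 and 15.4 CPM in Cdk19-null organoids. For Alpi, Akp3 and Pdx1 the double knockout therefore resembled VillinCreERT2 organoids in level, and Cdk19-null organoids lay nearer to C57BL/6 organoids. The part of region of origin in the comparison was not tested.

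Of 25 targets of p53, 4 were higher and 0 lower, with a median of 0.19. Zmat3, an RNA-binding target of p53, was at 26.6, 24.8 and 23.3 CPM against 16, 14.8 and 16 CPM (log2 fold change 0.67 ± 0.095). Eda2r, a death-domain receptor, was at 2.39 ± 0.408 against 0.384 ± 0.126 CPM. Phlda3 (0.86) and Ddit4l (1.96) were the others. Cdkn1a, the cell cycle inhibitor p21, was at 394 ± 46.5 against 381 ± 22.2 CPM (adjusted p = 0.731 by edgeR). Zmat3 was at 35.5 CPM in CDK8iIEC-KO and 50.7 CPM in VillinCreERT2 organoids but 18.4 CPM in C57BL/6 organoids, so the groups that carry Cre were the higher ones for this gene. Between the VillinCreERT2 and C57BL/6 controls 12 of the 25 were called higher, beside 1645 of all 15125 genes tested.

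**Figure D4:**
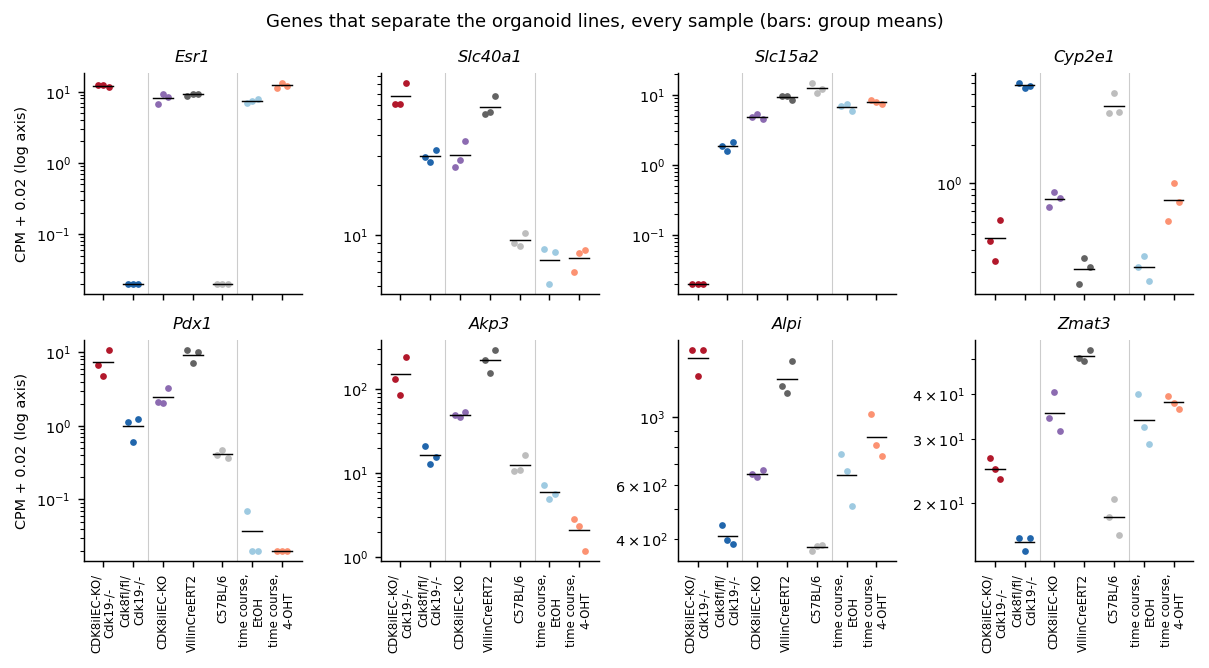
CPM + 0.02 on log axes for 8 genes, with 3 points per group and a bar at the group mean; a point at 0.02 is a sample with 0 counts. Esr1 is detected only in groups that carry VillinCreERT2, Slc15a2 is at 0 only in the double knockout, and Pdx1, Akp3 and Alpi differ between the VillinCreERT2 and C57BL/6 controls as well.

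A separate time course line of the same genotype as the double knockout gave a comparison inside 1 line. There, 3 samples given 4-OHT were set against 3 given its solvent, ethanol (EtOH), on day 7, with all 24 samples of that table in the fit. Both arms carried VillinCreERT2, Cdk8fl/fl and Cdk19-/-, so Cre and line were the same, while 4-OHT and the deletion came together. This comparison shares no sample with the first. Of 15447 genes tested, 1391 were called higher (9.0%) and 1429 lower (9.25%).

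Of the 1602 genes called between the lines, 1338 were tested in the time course line. Of these, 555 were called in the same direction (41.5% of the 1338, and 21.1% of the 2631 time course calls tested in both), and 66 were called in the opposite direction (4.93%). By direction, 42.5% of the 763 higher genes were higher with 4-OHT, against 8.81% of all genes tested in both, and 40.2% of the 575 lower genes were lower, against 9.46%. Across the 14403 genes tested in both, Pearson's r of the log2 fold changes was 0.413 and Spearman's rho 0.457, a description across genes, which are not independent replicates.

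**Figure D5:**
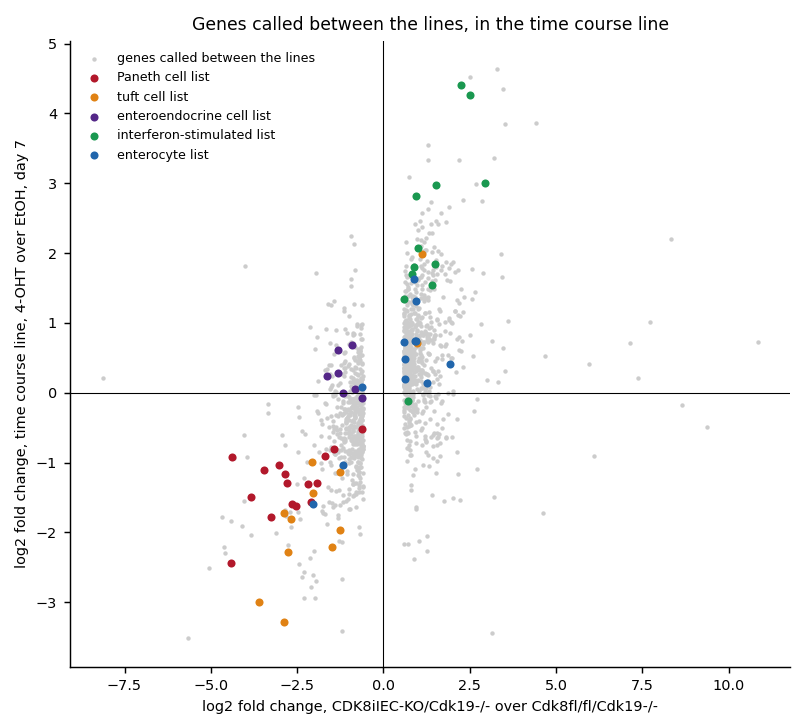
Each point is 1 of the 1338 genes called between the lines and tested in the time course, with the log2 fold change between the lines on the x axis and that of 4-OHT over EtOH inside the time course line on the y axis. Paneth and tuft genes lie mostly at lower left, interferon-stimulated genes mostly at upper right, and the tested enteroendocrine genes, none called in the time course, between -0.08 (Rfx6) and 0.68 (Fev) on the y axis.

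Paneth genes fell inside the line as well. Of 18 tested, 15 were called lower and 1 higher, and the median log2 fold change was -1.23. Lyz1 was at 1071, 1093 and 1229 CPM with 4-OHT and 3808, 3129 and 3546 CPM with EtOH (log2 fold change -1.63 ± 0.11, adjusted p = 3.6e-11 by edgeR). Ang4 was at 117, 119 and 120.0 CPM against 301, 207 and 292 CPM. The treated samples were the lower ones for both genes. The gene that rose was Pnliprp2, a lipase, with a log2 fold change of 0.84.

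Regulators of secretory fate had 9 of 17 lower and 0 higher. Atoh1 fell from 31.7, 33.8 and 32.3 CPM to 15.8, 18.4 and 17.5 CPM (log2 fold change -0.92 ± 0.075), beside -0.86 ± 0.096 between the lines. Wnt3 fell from 13.5 to 4.49 CPM on average (-1.58 ± 0.13), beside -1.50 ± 0.17. Bhlha15 changed by -1.74 ± 0.096, beside -1.69 ± 0.095. The paired values of these 3 genes lay within their standard errors of each other, in tables normalized separately.

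Tuft genes had 8 of 15 lower and 2 higher with 4-OHT, and the 2 that rose were again Plcg2 and Hpgds. Plcg2 was at 16.9, 21.8 and 19.7 CPM against 3.63, 5.44 and 5.69 CPM (log2 fold change 1.99 ± 0.18). Pou2f3 was at 1.46, 1.75 and 1.06 against 6.51, 4.90 and 3.60 CPM (-1.81 ± 0.25). Dclk1 was at 0.0503 CPM with EtOH on average and at 0 with 4-OHT, too few counts to be tested.

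Enteroendocrine genes could hardly be compared inside the line. Of the 28, 10 were tested and 0 called, and at an adjusted p alone Neurog3 stood at 1.00 by edgeR. Neurog3 was at 13.1, 12.2 and 12.9 CPM with 4-OHT and 10.9, 12.5 and 14.7 CPM with EtOH, and the samples overlapped. Chga was at 0.228 CPM with 4-OHT and 0.0334 CPM with EtOH on average, far from the 71.2 ± 6.67 CPM of Cdk19-null organoids. Sst was at 0 in all 6 samples. Chga and Sst were thus at or near 0 in the EtOH samples, while Neurog3 was not.

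Goblet genes had 6 of 20 lower and 2 higher. Ccl6 fell from 61.8, 34.9 and 41.4 CPM to 8.14, 10.1 and 8.53 CPM (log2 fold change -2.36 ± 0.28), beside -2.14 ± 0.096 between the lines. Muc2 was at 275, 278 and 227 against 245, 227 and 187 CPM (0.24 ± 0.21, adjusted p = 0.373 by edgeR).

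Stem and cell cycle genes changed further inside the line. Of 20 stem cell genes 11 were lower and 0 higher, and Olfm4 fell from 1575, 1340.2 and 1644 CPM to 372, 437 and 622 CPM (log2 fold change -1.67 ± 0.17). Of 33 genes of DNA replication 30 were lower, with a median of -0.94, and of 30 of mitosis 28 were lower, with a median of -0.80. Mki67 was at 120.4, 142 and 163 CPM against 247, 305 and 329 CPM (-1.05 ± 0.13). The difference in size between the comparisons was not tested.

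Interferon-stimulated genes rose in 25 of 32 tested and fell in 0, and their median log2 fold change was 1.44. Oasl2 rose from 1.87, 2.23 and 2.64 CPM to 31.7, 52.5 and 45.6 CPM (4.27 ± 0.28, adjusted p = 4.35e-10 by edgeR), and Irf7 from 20, 18.8 and 19.1 to 63.0, 74.1 and 65.7 CPM. All treated samples were above all untreated ones for both. Among MHC class I genes 13 of 20 rose. Mx1, called between the lines, was at 1.62, 1.03 and 0.636 against 1.31, 1.68 and 0.558 CPM inside the line, where the samples overlapped.

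The genes that differed by line were then followed with 4-OHT. Slc15a2 was at 8.30, 7.77 and 7.26 CPM against 6.91, 7.37 and 5.84 CPM (log2 fold change 0.21 ± 0.15, adjusted p = 0.258 by edgeR). Zmat3 was at 37.9 against 33.9 CPM on average (adjusted p = 0.225 by edgeR). Esr1 rose from 7.38 to 12.2 CPM on average (0.72 ± 0.13). Akp3 went the other way, from 7.16, 4.95 and 5.58 to 2.80, 2.32 and 1.17 CPM (-1.49 ± 0.50, adjusted p = 0.0203 by edgeR), and Alpi was not called (0.42 ± 0.23).

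Proximal genes had 3 of 16 higher and 1 lower inside the line (median 0.19), and distal genes 12 of 18 higher and 2 lower (median 0.84), the opposite sign to their median between the lines. Lipid and P450 genes kept the sign of their medians, with 12 of 25 P450 genes higher and 2 lower. Acacb rose from 0.454, 0.0989 and 0.965 to 5.82, 14.2 and 11.0 CPM (log2 fold change 4.35 ± 0.43), Cd36 from 5.91 to 31.5 CPM on average (2.41 ± 0.15) and Scd1 from 1696 to 2997 CPM (0.82 ± 0.094).

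Of the 12 largest rises between the lines, Chrna4 was also called higher inside the line. Chrna4, a neuronal nicotinic receptor subunit (GRCm38 chr2:181018380-181043546), was at 27.6, 34.9 and 31.0 CPM in the double knockout and 1.74, 1.28 and 1.34 CPM in Cdk19-null organoids (log2 fold change 4.42 ± 0.15, adjusted p = 3.56e-18 by edgeR). Inside the line it went from 1.87, 1.88 and 2.23 CPM to 23.5, 29.5 and 34.6 CPM (3.87 ± 0.22). It was also at 3.64 CPM in CDK8iIEC-KO, 0.115 CPM in VillinCreERT2 and 2.76 CPM in C57BL/6 organoids, so the controls with intact kinases differed as well (log2 fold change -4.53 ± 0.36, adjusted p = 4.98e-11 by edgeR). Esr1, given above, was the other one called higher. Aqp8, Ndufa4l2, Nkx6-3, Sdc2, Marc1, Wwtr1, Oas1g and Nrn1 had too few counts in the time course to be tested, and Spp2 was not called there.

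The fold change of double knockout over Cdk19-null was also set against that of CDK8iIEC-KO over VillinCreERT2 organoids, which have intact Cdk19. The difference of the 2 responses, (double knockout over Cdk19-null) against (CDK8iIEC-KO over VillinCreERT2), was called for 2845 genes (18.8%), 1454 of them positive (9.61%) and 1391 negative (9.20%). Of the 1602 genes called between the lines, 1107 (69.1%) were called in this contrast with the same sign and 17 with the opposite sign. The double-knockout and Cdk19-null samples enter both contrasts, so these counts are not independent. The VillinCreERT2 control carries Cre and the Cdk19-null group does not, so a difference that follows the transgene stays in this contrast. Each group is also a line of its own, so differences between lines stay in it as well. The groups of the control pair also differ in the Y-linked gene Eif2s3y, at 70.0 CPM in CDK8iIEC-KO and 0 in VillinCreERT2 organoids.

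The same contrast with CDK19 present is given for genes named above. Lyz1 was at 553 CPM in CDK8iIEC-KO and 608 CPM in VillinCreERT2 organoids, a log2 fold change of -0.14, and its difference of responses was -2.41. Atoh1 was at 19.4 and 20.8 CPM (-0.10; difference -0.76, adjusted p = 4.2e-05 by edgeR), and Pou2f3 at 2.76 and 2.90 CPM (-0.07; difference -2.62). Wnt3 was at 4.29 and 5.30 CPM (-0.31; difference -1.19). Of the Paneth list 15 of 18 differed in the negative and 1 in the positive direction, of the tuft list 10 and 2 of 19, and of the enteroendocrine list 13 and 3 of 28. Of the DNA replication and G1/S list 23 of 33 differed in the negative and 0 in the positive direction, and of the mitosis and G2/M list 24 and 0 of 30.

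For other genes the difference of responses was not called. For Chrna4 the log2 fold change was 4.93 with CDK19 present, against the low VillinCreERT2 level given above, and the difference of responses was -0.51 ± 0.49 (SE; adjusted p = 0.43 by edgeR). For Cd36 it was 1.44, and the difference 0.16 ± 0.17 (adjusted p = 0.49 by edgeR). Such a p does not show that the responses are equal. Of the interferon-stimulated list, 12 of 33 differed in the positive and 1 in the negative direction, and Irf7 was at 9.65 CPM in CDK8iIEC-KO and 12.7 CPM in VillinCreERT2 organoids.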

How the data were processed

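Total RNA of organoids was sequenced as 100 bp paired-end reads, per the labels. The authors deposited raw read counts per gene (54752 genes), with no normalization. The submitters' processing notes name STAR 2.5.2, Subread 1.6.3, featureCounts and mm10, and strand use is not given in the sources used here. Positions are from GENCODE vM21 (GRCm38), which holds 53861 of the identifiers. All per-sample columns of both tables used were mapped to samples. Counts were fitted with edgeR 4.0.16 (filterByExpr, TMM, robust quasi-likelihood F test, Benjamini-Hochberg adjustment) in R 4.3.3, for each table separately. Standard errors are the log2 fold change over the root of F.

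Named genes were the 12 largest rises and falls among called genes with at least 50 mean counts in the higher group, no overlap of samples and no clone-style symbol, up to 6 called members of each of 55 gene lists, and 30 fixed genes; others were named after their values were seen, and some selected genes are not reported here. The comparison, its lists and its named genes were chosen with earlier results of these data known. The edgeR, DESeq2 and limma-voom fits of the comparisons were tested on simulated data. Chi-square values per degree of freedom between replicates ran from 3.14 to 12.9, so no library was counted as a duplicate. Alternatives were other filters, upper quartile factors, DESeq2 1.42.0, limma 3.58.1 (voom), a replicate block, the compared groups alone and each replicate left out.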

Additional observations from a re-analysis of the deposited data

Results flagged for a closer look

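The difference of responses defined above was called for 2845 genes by the interaction contrast of edgeR. Values below are log2 differences, negative where double knockout over Cdk19-null was the more negative of the 2 fold changes. The groups differ in transgene and line, and those of the control pair in Eif2s3y, as described. The part of these in the values was not tested.

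Among Paneth genes the difference was -2.41 for Lyz1, -2.53 for Ang4, -2.17 for Mmp7, -2.63 for Mptx1, -6.18 for Mptx2 and -6.13 for Pla2g2a. For the defensins it was -4.21 for Defa2, -4.13 for Defa3, -3.96 for Defa5, -3.76 for Defa20, -3.76 for Defa21, -3.21 for Defa32 and -4.75 for Defa34. Among regulators it was -0.76 for Atoh1, -0.95 for Gfi1 and -1.62 for Neurog3. Tuft genes differed by -2.69 (Dclk1) and -2.62 (Pou2f3), and the enteroendocrine gene Chga by -1.20. Tff3 differed by 0.72.

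For Wnt and stem cell genes the difference was -1.19 for Wnt3, -1.18 for Axin2, -2.60 for Ascl2, -1.07 for Olfm4, -1.05 for Msi1, -0.82 for Myb, -0.71 for Hopx and -0.70 for Mki67. Alpi differed by 2.96 and Cdkn1a by 0.65. For Cdkn1a the log2 fold change was 0.05 between the lines and -0.60 in CDK8iIEC-KO over VillinCreERT2.

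Among the largest rises the difference was 11.02 for Esr1, 9.55 for Nkx6-3, 7.81 for Spp2, 6.80 for Marc1, 5.11 for Oas1g, 4.98 for Aqp8, 4.64 for Wwtr1, 4.62 for Ndufa4l2, 3.78 for Sdc2 and 3.67 for Nrn1. That of Esr1 rests on a group at 0 counts and is no measure of size. Cyp2e1 differed by -5.89.

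Cyp2e1, an ethanol-inducible P450, also went in opposite directions in every sample of the other comparison. It was at 0.331, 0.226 and 0.498 CPM in the double knockout against 6.02, 5.53 and 5.76 CPM in Cdk19-null organoids, and at 0.485, 0.978 and 0.689 CPM with 4-OHT against 0.202, 0.247 and 0.152 CPM with EtOH (log2 fold change 1.81). It was also at 0.194 CPM in VillinCreERT2, 0.733 CPM in CDK8iIEC-KO and 4.01 CPM in C57BL/6 organoids, so it was lower in each group with Cre and differed between the controls with intact kinases (log2 fold change -4.33 ± 0.29, adjusted p = 2.84e-12 by edgeR). The difference between the first 2 comparisons was not tested.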

How the results depend on the processing

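All comparisons had 3 samples per group, and genes with few counts were not tested under the stricter filter. The double knockout against Cdk19-null count of 1602 ran from 1442 to 1607 with 1 library left out. It ran from 2579 to 2962 for the difference of responses (2845), from 2494 to 3085 for the time course line (2820) and from 3720 to 4148 for VillinCreERT2 against C57BL/6 (3986). Other filters, upper quartile factors, DESeq2, limma-voom and the compared groups alone kept each count within 1.5 times its value, for example 1748 with no filter, 1074 at 10 counts in every sample and 1461 by DESeq2 between the lines. With an adjusted p alone and no fold cutoff the 4 counts were 5227, 6182, 6982 and 9276, since genes of small fold then count.

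Of 184 called genes that the naming rule selected, 162 kept their call under every alternative that tested them (genes with few counts were not tested at 10 counts in every sample), 22 lost it under at least 1 and 0 changed direction. Mki67 and Myb were called under at least 1. At 10 counts in every sample, which tests fewer genes, the tuft cell list had 3 genes called lower in place of 14, and the interferon-stimulated list 7 called higher in place of 13.

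Replicate numbers are shared across groups, but same-numbered samples deviated together only weakly (r from 0.0351 to 0.0572 between the lines and 0.00179 to 0.162 in the time course). With 3 samples per group, such values cannot show whether same-numbered samples were handled together. With the replicate number as a block, the counts were 1622 between the lines, 2840 for the difference of responses, 2817 in the time course line and 3999 for VillinCreERT2 against C57BL/6.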

Other observations

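mt-Nd3, a mitochondrially encoded subunit of complex I, stood apart from its list. It was at 14.5, 10.4 and 11.7 CPM in the double knockout and 0.985, 1.05 and 1.57 CPM in Cdk19-null organoids (log2 fold change 3.33 ± 0.20), while the other 12 mitochondrial genes were not called and the list median was -0.06. It was at 0.627 CPM in CDK8iIEC-KO, 3.03 CPM in VillinCreERT2 and 1.62 CPM in C57BL/6 organoids, and did not move with 4-OHT inside the time course line (0.15 ± 0.18).

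Nr0b2, a nuclear receptor that is a target of bile acid signalling, was at 2.15, 2.26 and 2.05 CPM in the double knockout and 0.0579, 0.175 and 0.335 CPM in Cdk19-null organoids, while Fgf15, another target, was lower (log2 fold change -2.49 ± 0.47). Their list, bile acid handling, had 1 of 10 genes higher and 2 lower, and mt-Nd3 and Nr0b2 were singled out after their values were seen.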
